A study of Mus musculus with 23 samples.

Results

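Undiluted TMT was set against TMT diluted to 1% in the olfactory epithelium of C57BL/6 mice at postnatal day 21. TMT (trimethylthiazoline) is a volatile thiazoline of fox secretions that mice avoid. The comparison rests on 8 of the 23 RNA-seq libraries of the series, chosen by their labels: the 4 labelled 100% TMT and the 4 labelled 1% TMT, 1 of each dose from each of litters 1 to 4. Exposure lasted 1 h. After it, homogenates of the epithelium were incubated with an antibody to pS6, the phosphorylated form of ribosomal protein S6, and the RNA on the captured ribosomes was amplified as cDNA and sequenced. The 4 libraries of control animals from the same litters carried the same pull-down without TMT. They entered the fit so that 12 libraries share 1 estimate of the spread, and they are given beside the doses as the background. The labels name no transgene or deletion in any group. The sources used here do not give the number of animals per library, what the control animals received or how the odor was presented. Unique counts summed to 2869995 to 9526932 per library at 1%, 2672161 to 8347796 at 100% and 4069851 to 7609265 in controls.

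An olfactory sensory neuron carries 1 type of odorant receptor on its cilia, and an odor that binds this receptor depolarises the neuron. Kinases then phosphorylate ribosomal protein S6, so a pS6 pull-down takes up more RNA from active cells, and immediate early genes and other activity-dependent genes are read in the same RNA. The neurons are surrounded by supporting (sustentacular) cells rich in detoxifying enzymes and by glands whose lipocalins, mucins and Bpif proteins form the mucus through which odorants reach the cilia. Basal cells renew the neurons throughout life, by way of immature neurons that grow an axon.

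At the higher dose the mucus and gland genes Lcn3, Obp2b and Dmbt1 stood at 2.52 to 3.19 times their level at the lower dose, and the transcriptional repressor Nfil3 at 2.17 times. Among genes of growing neurons, Tubb3 and Crabp1 had log2 fold changes of −0.67 and −0.69. No single gene passed in the edgeR fit with litter as a block: 0 of 13233 genes tested (percent called: 0%) had an adjusted p under 0.05, and the smallest adjusted p was 0.0646, for Nfil3. Before adjustment, 567 genes (4.28%) were higher and 501 genes (3.79%) were lower at a p under 0.05. DESeq2 on the same libraries and with the same block called 49 genes higher and 44 lower. In 4 of 4 litters, 1194 genes (9.02%) were higher at 100% and 1051 genes (7.94%) were lower. Every 100% library lay above every 1% library in 221 genes (1.67%), and below every 1% library in 242 genes (1.83%). Against the controls, with which both contrasts share libraries, edgeR called 314 genes (2.37%) at 100% TMT, 244 of them higher, and 1 gene (0.00756%) at 1% TMT, the receptor Olfr1395. A member of a gene list is counted as higher or lower in the following where its edgeR p was under 0.05 before adjustment, and since none passed, values are given in place of calls. These p-values measure the spread between libraries that is left after the group and litter terms. The shares over all genes, 4.28% higher and 3.79% lower, are the background of each count in this fit. For counts in 4 of 4 litters they are 9.02% and 7.94%. Counts over all genes also moved when libraries were left out, and list counts of those fits are to be read beside them. They were 691 higher and 622 lower without litter 1, and 349 and 386 without litter 2. Without litter 3 they were 408 and 332, and without litter 4 they were 358 and 353. Without 1 single library they ran from 338 to 724 higher and from 340 to 721 lower. By DESeq2 they were 752 and 693.

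**Figure D1:**
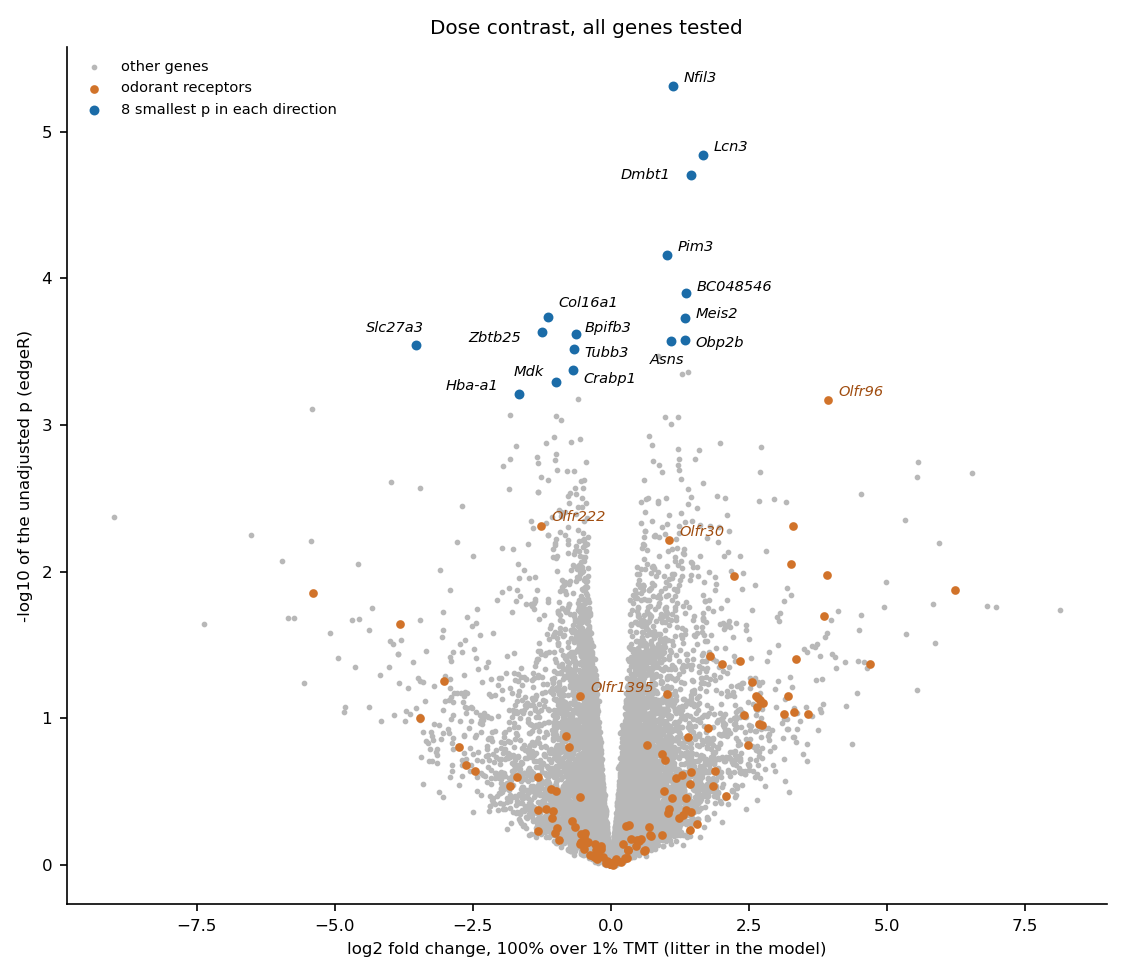
The plot of all 13233 genes tested shows the log2 fold change of 100% over 1% TMT (x axis) against −log10 of the unadjusted edgeR p (y axis). Each dot is a gene. Blue dots are the 8 genes of smallest p in each direction, with Nfil3, Lcn3 and Dmbt1 at the top, and orange dots are odorant receptors.

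Base composition moved with the dose contrast. Across the 13115 genes with an annotated transcript, the log2 fold change correlated with GC content at a Spearman's rho of −0.259, a description across genes of the same libraries. The genes counted as higher had a median GC content of 46.6%, the lower ones 54.9% and all genes tested 50.3%. After each library had been corrected for GC content and transcript length, the correlation was −0.013, 737 genes were higher and 251 lower before adjustment in place of 567 and 501, and 4 genes passed, all higher: Dmbt1, Lcn3, Nfil3 and Pim3. The correction moved the median log2 fold change of all genes from 0.0057 to 0.097. Corrected medians of lists are to be read beside this 0.097, and corrected counts beside 737 and 251 genes. Without the block the 2 numbers were 294 and 403, and with the 8 libraries of the doses alone they were 619 and 359. In that last fit 5 genes passed, all higher: Dmbt1, Lcn3, Nr4a1, Obp2b and Odam.

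Nfil3 (chr13:52967209-52981073, GRCm38) encodes a bZIP repressor that binds the same sites as the PAR bZIP activators of the circadian clock's output. It stood at 120.3, 259, 155 and 122 CPM (counts scaled to the library size) in the 1% libraries of litters 1 to 4 and at 231, 615, 347 and 264 CPM in the 100% libraries of the same litters. In each litter the 100% library was the higher one, though litter 2 ran high at both doses, so that the groups overlapped. The controls, at 84.8, 189, 118 and 121 CPM, lay close to the 1% libraries. The log2 fold change between the doses was 1.12 (SE 0.14, 95% interval 0.81 to 1.42, edgeR adjusted p = 0.0646). Against the controls it was 1.45 at 100% (adjusted p = 0.00497) and 0.33 at 1% (adjusted p = 0.694). Of the 16 tested genes of the circadian clock and its output, 2 were higher, Nfil3 among them, and none was lower, with a median log2 fold change of 0.10 beside 0.0057 over all genes. The PAR bZIP activator Dbp stood at 62.8 to 76.1 CPM at 1% and 65.2 to 83.1 CPM at 100% (log2 0.17, 95% interval −0.18 to 0.52).

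Lcn3 and Obp2b encode small secreted lipocalins that carry hydrophobic molecules in nasal mucus, and with Obp2a they lie within a short stretch of chromosome 2. The 100 bases before their start sites, from RefSeq on GRCm38.p6, are shown because these neighbours were higher together. They are written 5′ to 3′ on the plus strand, on which all 3 genes run, with the letters TATAAA in capitals. The spans are chr2:25765433-25765532 for Lcn3, chr2:25736907-25737006 for Obp2b and chr2:25699974-25700073 for Obp2a.

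Lcn3: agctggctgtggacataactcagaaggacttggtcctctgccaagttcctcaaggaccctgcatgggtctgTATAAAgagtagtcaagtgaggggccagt
Obp2b: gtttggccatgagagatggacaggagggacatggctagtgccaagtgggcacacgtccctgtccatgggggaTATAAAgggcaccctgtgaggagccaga
Obp2a: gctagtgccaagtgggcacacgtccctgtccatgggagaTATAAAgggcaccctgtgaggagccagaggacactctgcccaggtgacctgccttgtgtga

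Aligned over 100 bases, Lcn3 and Obp2b shared 62 letters. Obp2a and Obp2b shared 66 letters with 1 mismatch, and the rest fell outside the aligned stretch because the annotated start of Obp2a lies further downstream of it. TATAAA began 29 bases before the start of Lcn3, 28 before that of Obp2b and 61 before that of Obp2a. It occurs on 1 strand or the other in the 250 bases before 12.4% of the 32851 start sites of the RefSeq table, so it is a common feature and is given as a description.

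Lcn3 stood at 2837, 2834, 4860.0 and 2315 CPM in the 1% libraries of litters 1 to 4, and at 8421, 10419.9, 11974 and 8967 CPM at 100%. The lowest 100% library was thus well above the highest 1% library. In the controls Lcn3 stood at 6055, 2549, 4723 and 4937 CPM, so that in litters 1 and 4 the 1% library was the lowest of the 3. The dose contrast was a log2 fold change of 1.67 (SE 0.23, 95% interval 1.16 to 2.18, edgeR adjusted p = 0.0874). Against the controls the value was 1.14 at 100% and −0.53 at 1%.

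Obp2b was read at 9900.5, 9005, 12286 and 6682 CPM at 1% and at 21198, 22929, 29482 and 22714 CPM at 100%. Again the groups did not overlap. Litter 4 had the highest control value, 18362 CPM, against 7842 to 10375 CPM in the other controls. The log2 fold change between the doses was 1.33 (SE 0.26, 95% interval 0.77 to 1.90, edgeR adjusted p = 0.308).

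Of the 10 tested odorant binding proteins and nasal lipocalins, 4 were higher and none was lower before adjustment, and their median log2 fold change was 0.52. The number was 2 without litter 2, without the 1% library of litter 2 or of litter 4, without the 100% library of litter 3, and without the block. The other two were Obp2a and Lcn4. Obp2a, among the most abundant of these RNAs, stood at 19869, 37386, 52493 and 27180.2 CPM at 1% and at 36592, 60181, 73081 and 51232 CPM at 100%. It was higher in each litter, with overlapping groups (log2 0.72, SE 0.29). Lcn4 varied widely between litters: it stood at 912, 11.9, 19.95 and 7.17 CPM at 1% and at 1366, 55.0, 221 and 2135 CPM at 100% (log2 2.83, SE 1.23). Lcn11, at 17535 to 33220 CPM at 1% and 24859 to 37509 CPM at 100%, was higher in 3 of 4 litters (log2 0.32, 95% interval −0.45 to 1.10). Obp1a, on the X chromosome, was higher in 2 litters and lower in 2 (log2 −0.46, 95% interval −2.59 to 1.66).

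**Figure D2:**
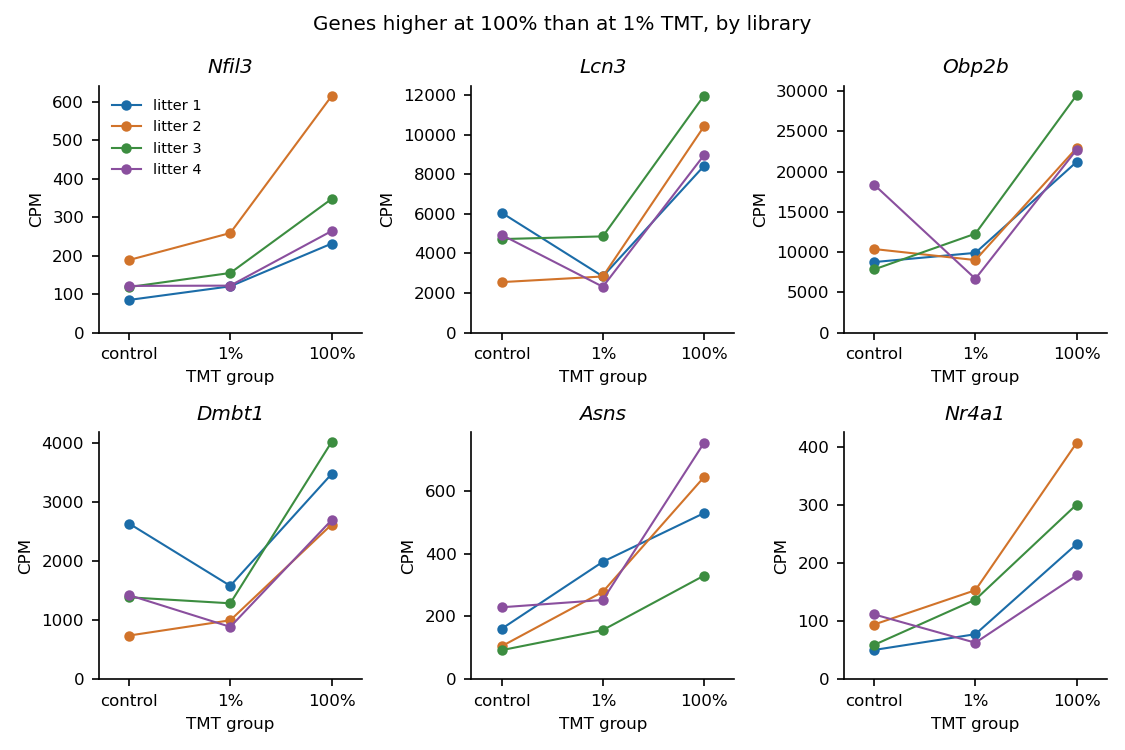
The plots by library show CPM (y axis, from 0) of Nfil3, Lcn3, Obp2b, Dmbt1, Asns and Nr4a1 in the control, 1% and 100% libraries (x axis), with a line for each of the 4 litters. In all 6 genes each line is higher at 100% than at 1%, while from control to 1% the lines of Lcn3, Obp2b and Dmbt1 go in both directions.

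Dmbt1 (chr7:131032053-131121630) encodes a large scavenger-receptor glycoprotein of mucosal secretions that binds bacteria. Its levels were 1582, 998, 1286 and 886 CPM at 1% and 3477, 2619.7, 4019.5 and 2696 CPM at 100%. All 100% libraries lay above all 1% libraries. The controls ran from 738 to 2639.6 CPM and reached the lowest 100% values only in litter 1. The log2 fold change was 1.45 (SE 0.21, 95% interval 1.00 to 1.91, edgeR adjusted p = 0.0874).

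Among the 24 tested genes of mucosal defence and gland secretion, 8 were higher and 2 were lower before adjustment, with a median log2 fold change of 0.42. The higher ones were Dmbt1, Reg3g, Wfdc18, Agr2, Muc5ac, Pigr, Azgp1 and Tff2. Reg3g, a secreted antibacterial lectin, stood at 1594, 139, 126 and 1528 CPM at 1% and at 2516, 2535, 2504 and 3087 CPM at 100%. The 100% libraries lay close together and the 1% libraries fell into 2 levels, those of litters 1 and 4 above those of litters 2 and 3 (log2 2.67, SE 0.72). Wfdc18, a small secreted protein with a WAP domain, was likewise higher in litters 1 and 4 than in litters 2 and 3 at the lower dose, with 1282, 113, 94.6 and 607 CPM at 1% and 2175, 2752, 799 and 1576 CPM at 100% (log2 2.71, SE 0.65). Agr2, a disulfide isomerase that mucin folding needs, was lower at 100% in litter 1 (422 against 345 CPM) and higher in the other three. The gel-forming mucin Muc5ac stood at 43.3 to 71.6 CPM at 1% and at 95.1 to 177 CPM at 100%, with no overlap (log2 1.45, SE 0.39). Pigr carries antibodies of the mucosa across epithelia, and stood at 5.29 to 11.8 CPM at 1% and 5.97 to 34.1 CPM at 100%. The lower ones were Scgb1c1, a secretoglobin of the nasal mucosa (log2 −0.47, SE 0.16), and Cst3, cystatin C (log2 −0.42, SE 0.17), each lower in 3 of 4 litters. With the GC and length correction, 11 genes of this list were higher and none was lower, against 5 and 2 without the 100% library of litter 2 and 4 and 1 without the block. The value of Wfdc18 was 1.69 without the 100% library of litter 2, 1.79 without litter 2 and 1.802 without the block.

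The Bpif family encodes secreted lipid-binding proteins of the airway mucosa, in a cluster of genes on chromosome 2, and its members split by dose. Of the 8 tested, 5 were higher (Bpifa1, Bpifb1, Bpifb5, Bpifb9a and Bpifb9b) and 3 were lower (Bpifb3, Bpifb4 and Bpifb6) before adjustment, and the numbers were the same after the GC and length correction. The 5 became 2 without litter 2 or without the 100% library of litter 1, and 3 without the 100% library of litter 2. Bpifb1 (chr2:154190818-154220369) stood at 82.0, 58.4, 72.8 and 53.6 CPM at 1% and at 111.5, 253, 149 and 146 CPM at 100%, with no overlap (log2 1.29, SE 0.27, edgeR adjusted p = 0.349). Bpifa1, an abundant RNA, stood at 4115 to 8033 CPM at 1% and 7839 to 11478 CPM at 100%, and was higher in 4 of 4 litters (log2 0.74, SE 0.18). Bpifb3 (chr2:153918230-153932996) stood at 5003, 2499.6, 3576 and 3690.3 CPM at 1% and at 2740.3, 1834, 2364 and 2412 CPM at 100%. It was lower in each litter although the groups overlapped (log2 −0.63, SE 0.12, edgeR adjusted p = 0.308, and −0.41 with the correction). Bpifb4 (log2 −0.44, SE 0.11) and Bpifb6 (log2 −0.63, SE 0.17) were also lower in 4 of 4 litters. Bpifb9a and Bpifb9b are near-identical copies whose unique counts are only 1.35% and 1.36% of their estimated counts, so their values, log2 1.67 and 1.69, are 1 uncertain measurement.

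**Figure D3:**
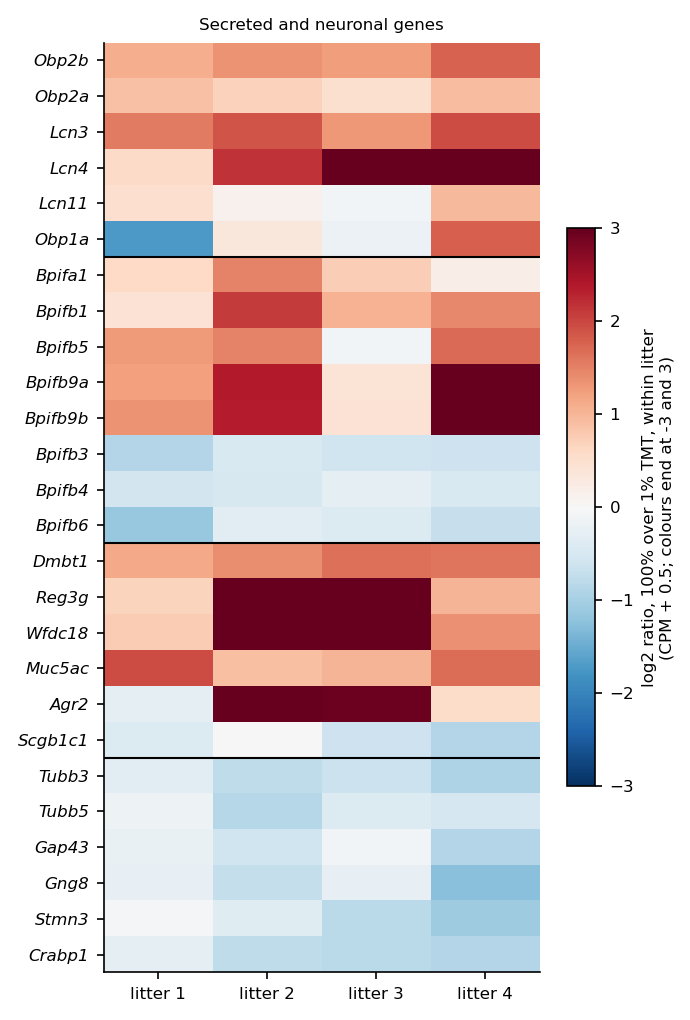
The heat map shows, for each of the 4 litters (columns), the log2 ratio of 100% to 1% TMT in CPM + 0.5 for lipocalins, Bpif proteins, other mucosal genes and genes of growing neurons (rows, in 4 blocks set apart by lines). Red is higher at 100%. Obp2b, Lcn3, Bpifb1 and Dmbt1 are red in all 4 columns, and Bpifb3, Bpifb4, Bpifb6 and Tubb3 are blue in all 4.

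Nr4a1 (chr15:101254269-101274795), an orphan nuclear receptor induced within the hour by activity, stood at 77.3, 153, 137 and 62.6 CPM at 1% and at 233, 407, 301 and 179 CPM at 100%. No 1% library reached the lowest 100% library. The log2 fold change was 1.40 (SE 0.29, 95% interval 0.77 to 2.02, edgeR adjusted p = 0.349), and it passed in the fit of the 8 libraries. Of the 30 tested immediate early genes, 6 were higher and none was lower, with a median log2 fold change of 0.42 in place of 0.0057 over all genes. With the GC and length correction 12 were higher and none was lower, and 10 were higher by DESeq2, but 3 without litter 1. Fos, a subunit of the AP-1 factor, stood at 21.8, 50.002, 63.2 and 36.8 CPM at 1% and at 85.0, 189, 56.7 and 62.1 CPM at 100%, so that it was higher in 3 of 4 litters and lower in litter 3 (log2 1.20, SE 0.41). The zinc-finger factor Egr1 stood at 9.92, 23.5, 30.8 and 29.8 CPM at 1% and at 47.0, 40.5, 45.4 and 38.8 CPM at 100%, with no overlap (log2 0.96, SE 0.31, and 0.59 without litter 1). The others were Dusp1, Nr4a2 (log2 0.98, SE 0.44) and Ier3 (log2 0.64, SE 0.28).

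Dusp1 encodes a phosphatase that switches off MAP kinases, and it stood at 77.3 to 110.2 CPM at 1% and 127 to 239 CPM at 100%, with no overlap (log2 0.77, SE 0.19). Its promoter holds the palindrome TGACGTCA, the letters of the cyclic AMP response element. The promoter is shown because 3 of the 26 immediate early genes with a promoter in the table hold the palindrome (Btg2, Dusp1 and Maff). It occurs in 478 of the 27025 genes and in 1.55% of all promoters. The stretch is chr17:26508568-26508655, written 5′ to 3′ on the minus strand on which the gene runs, with the palindrome in capitals.

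Dusp1: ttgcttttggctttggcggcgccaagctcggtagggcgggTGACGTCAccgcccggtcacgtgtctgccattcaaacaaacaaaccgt

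Of those 3, Dusp1 was higher, whereas Btg2 (log2 0.03, SE 0.69) and Maff (log2 −0.10, SE 0.39) stood near 0.

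Genes that olfactory neurons express according to their activity were higher in 3 of the 16 tested and lower in none, with a median log2 fold change of 0.54. These were Lrrc3b (log2 0.98, SE 0.22), Nrp1, an axon guidance receptor (log2 0.63, SE 0.26), and Epha5, an ephrin receptor (log2 2.80, SE 0.86, at 0 to 14.9 CPM at 1% and 6.34 to 20.5 CPM at 100%, and 1.51 without the block). Lrrc3b stood at 197, 43.6, 66.6 and 104 CPM at 1% and at 309.5, 66.6, 166 and 252 CPM at 100%, higher in each litter. Pcdh10, a protocadherin raised by activity in olfactory neurons, stood at 75.2 to 147 CPM at 1% and 107 to 227 CPM at 100% and was higher in 4 of 4 litters, with a log2 fold change of 0.52 (95% interval −0.0049 to 1.05, and 0.34 without the 100% library of litter 3). S100a5, which encodes a calcium sensor induced by neuronal activity, depended on the litter: it stood at 1071, 17.8, 16.7 and 70.8 CPM at 1% and at 1049, 24.0, 17.6 and 368 CPM at 100%. Its level in litter 1 exceeded the other litters at both doses (log2 0.85, 95% interval −0.70 to 2.40, and 0.13 without litter 4 or 1.29 without litter 1).

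Asns (chr6:7675169-7693254) encodes asparagine synthetase, a target of the factor ATF4 when amino acids run short. It stood at 374.5, 279, 156 and 253 CPM at 1% and at 529.9, 645, 330.4 and 754 CPM at 100%, and in the controls at 160.5, 105, 92.3 and 229 CPM. In each litter it was lowest in the control and highest at 100%. The log2 fold change between the doses was 1.08 (SE 0.21, 95% interval 0.62 to 1.54, edgeR adjusted p = 0.308), and against the controls it was 1.97 at 100% and 0.88 at 1%. The promoter of Asns is shown for its match to TGATGAAA, letters of the amino acid response element that ATF4 dimers bind, in capitals. The stretch is chr6:7693210-7693272, written 5′ to 3′ on the minus strand on which the gene runs.

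Asns: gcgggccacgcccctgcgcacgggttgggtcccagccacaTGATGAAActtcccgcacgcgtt

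TGATGAAA occurs on either strand in 0.883% of the promoters and in 267 of the 27025 genes of the table. On the ATF4 list it occurs in 2 of the 27 genes with a promoter there, Asns and the glycyl-tRNA synthetase gene Gars (log2 0.21, SE 0.27). Of the 33 tested genes of the ATF4 response, 3 were higher (Asns, Mthfd2 and Cth) and 2 lower (Ddit3 and Wars), with a median log2 fold change of 0.12. The stress factor Ddit3 (CHOP) stood at 233 to 457 CPM at 1% and 193 to 266 CPM at 100% and was lower in 3 of 4 litters (log2 −0.48, SE 0.19).

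Genes of protein entry into the endoplasmic reticulum and of the secretory path were higher in 10 of the 47 tested and lower in none. Their median log2 fold change was 0.36, and 20 of the 47 were higher in 4 of 4 litters, beside 9.02% of all genes. The number higher was 3 without litter 2 or its 1% library, 4 without the 100% library of litter 2 or the 1% library of litter 4, 6 without the block and 16 without the 1% library of litter 1. The 10 were the translocon genes Sec61a1, Sec63, Ssr2 and Tram1, the oligosaccharyltransferase genes Rpn1, Ostc and Stt3b, the chaperone genes Pdia4 and Calr, and Xbp1, whose spliced product switches on chaperone genes. Stt3b stood at 154, 115, 169 and 118 CPM at 1% and at 200.3, 246, 230.4 and 280.4 CPM at 100%, with no overlap (log2 0.79, SE 0.23). Xbp1 stood at 887 to 1299 CPM at 1% and 1176 to 2146 CPM at 100%, higher in 4 of 4 litters (log2 0.49, SE 0.18). Sec63 stood at 68.8, 3.32, 1.12 and 29.9 CPM at 1% and at 79.4, 58.9, 40.5 and 113 CPM at 100%, so that the difference was small in litter 1 and large in litters 2 and 3 (log2 2.70, SE 0.68, and 1.53 without the block).

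The ER chaperone genes hold a known element, CCAAT and CCACG separated by 9 bases, which binds the factors of the unfolded protein response. On either strand it occurs in 0.113% of the 32851 promoters and in 35 of the 27025 genes. Among the genes tested here it was found in 3 of the 39 secretory-path genes with a promoter in the table (Calr, Canx and Pdia6) and in 3 of the 19 heat shock and chaperone genes (Dnajc3, Hsp90b1 and Hspa5). The promoters of the 3 of these 6 genes that were higher before adjustment are shown, with the element in capitals, 5′ to 3′ on the strand on which each gene runs. They are chr2:34771985-34772083 for Hspa5 (plus strand), chr14:118937787-118937885 for Dnajc3 (plus) and chr8:84847035-84847133 for Calr (minus), where the element reads in the opposite direction.

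Hspa5: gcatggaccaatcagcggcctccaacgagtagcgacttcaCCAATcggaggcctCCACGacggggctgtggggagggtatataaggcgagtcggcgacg
Dnajc3: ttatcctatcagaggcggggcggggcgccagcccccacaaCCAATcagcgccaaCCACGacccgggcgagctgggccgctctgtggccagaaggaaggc
Calr: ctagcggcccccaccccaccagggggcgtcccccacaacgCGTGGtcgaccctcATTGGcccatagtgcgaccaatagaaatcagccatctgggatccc

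Hspa5 encodes BiP, the main chaperone of the endoplasmic reticulum, and stood at 469, 189, 263 and 301 CPM at 1% and at 455, 456, 397 and 703.5 CPM at 100%. It was higher in litters 2 to 4 and slightly lower in litter 1 (log2 0.74, SE 0.24). Dnajc3, a BiP co-chaperone, stood at 142 to 237 CPM at 1% and 233 to 389 CPM at 100% (log2 0.64, SE 0.25), and the calcium-binding chaperone Calr at 27.4 to 38.7 CPM and 47.6 to 57.0 CPM (log2 0.61, SE 0.28). Of the other members of this set of 6, Pdia6 had a log2 fold change of 0.30 (SE 0.14), Canx 0.45 (SE 0.39) and Hsp90b1 0.46 (SE 0.42). In all, 4 of the 24 tested heat shock and chaperone genes were higher, which were Hspa5, Dnajc3, the mitochondrial Hsp70 gene Hspa9 (log2 1.21, SE 0.30) and Hsph1 (log2 1.02, SE 0.38). This number was 2 without litter 2 or litter 3 or without the 100% library of litter 3 or litter 4. The small heat shock gene Cryab was lower (log2 −0.45, SE 0.16).

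**Figure D4:**
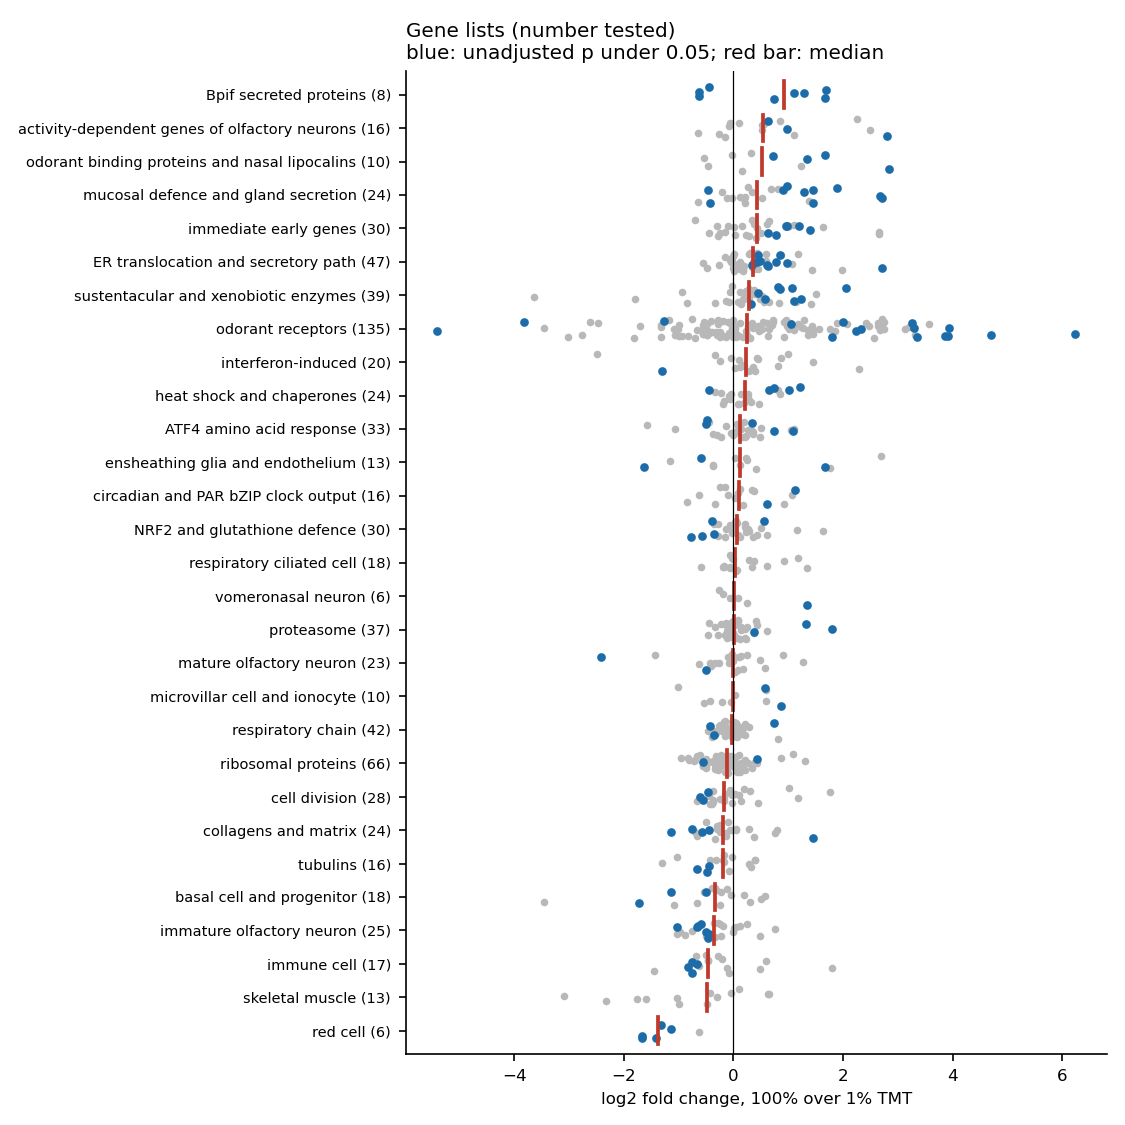
The plot of gene lists shows the log2 fold change of 100% over 1% TMT (x axis) of every tested member (dots) of 29 lists (rows, with the number tested). Blue dots had an unadjusted edgeR p under 0.05 and red bars are medians, which run from −1.37 for red cell genes to 0.92 for the Bpif proteins.

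Enzymes of the sustentacular cells and of xenobiotic metabolism were higher in 9 of the 39 tested and lower in none, with a median log2 fold change of 0.29. This count moved with single litters, as did the count over all genes. It was 15 without litter 1 or its 100% library, 4 without litter 2 or its 1% library and 3 without the 100% library of litter 2. The count was 2 without litter 3 or its 1% library and 5 without litter 4 or the 100% library of litter 3. Without the block it was 2, with 1 lower. Adh7 (chr3:138217760-138233382), an alcohol dehydrogenase that also oxidises retinol, stood at 96.5, 67.8, 104 and 115 CPM at 1% and at 145, 151, 217 and 177 CPM at 100%. These groups did not overlap (log2 0.85, SE 0.17, edgeR adjusted p = 0.321). Aldh1a1, which makes retinoic acid from retinal, stood at 205, 42.8, 49.9 and 89.6 CPM at 1% and at 212, 128, 155 and 259 CPM at 100%. The doses lay close together in litter 1 and far apart in the other litters (log2 1.23, SE 0.30). Others were Ugt2a1 (log2 1.10), whose counts are shared with Ugt2a2, Ugt1a6a (log2 0.57), Gstm5 (log2 1.06), Aox3 (log2 0.45), Adh1 (log2 0.32) and Ermn (log2 2.05). The sustentacular P450 Cyp2g1 stood at 387 to 1263 CPM at 1% and 733 to 1179.9 CPM at 100% (log2 0.65, 95% interval −0.13 to 1.43). Of the 30 tested genes of the NRF2 and glutathione defence, 1 was higher, Gclc, which makes the first step of glutathione synthesis (log2 0.55, SE 0.17). The metallothionein genes Mt1 and Mt2 and the peroxidase genes Gpx3 and Prdx2 were lower (log2 −0.58, −0.77, −0.39 and −0.36). With the GC and length correction 4 of the 30 were higher and none was lower. None of the list was lower without litter 3 or litter 4, or without the 1% library of litter 4 or the 100% library of either litter. The number lower was 1 without the 1% library of litter 3 or without the block. The value of Mt2 was −0.37 with the correction and without litter 4. Unique counts made up 22.2% of the estimated counts of Prdx2, so near copies may hold part of its reads.

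Tubb3 (chr8:123411424-123422015), the neuronal β-tubulin of growing neurons, stood at 323, 349, 422 and 365 CPM at 1% and at 253, 205, 268 and 193 CPM at 100%, with no overlap, and at 448 to 554 CPM in the controls. In each litter the order was control, then 1%, then 100%, from high to low. The dose contrast was a log2 fold change of −0.67 (SE 0.13, 95% interval −0.96 to −0.38, edgeR adjusted p = 0.308). Unique counts made up 32.9% of its estimated counts, and with the estimated counts the value was −0.68. The GC and length correction moved it to −0.43. Crabp1, a retinoic acid binding protein of immature olfactory neurons, stood at 179, 180.1, 238 and 209.9 CPM at 1% and at 149, 106.5, 135 and 113 CPM at 100%, again without overlap (log2 −0.69, SE 0.14, and −0.32 with the correction).

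Of the 25 tested genes of immature olfactory neurons, 7 were lower and none was higher, with a median log2 fold change of −0.36. In 4 of 4 litters 11 were lower, beside 7.94% of all genes. Those 7 were Tubb3, Gap43, a growth cone protein (log2 −0.45, SE 0.15), Gng8, the G protein γ subunit of immature neurons (log2 −0.65, SE 0.20), Stmn3, a microtubule-destabilising protein (log2 −0.59, SE 0.17), Marcksl1 (log2 −0.47, SE 0.17), the LIM factor Lhx2 (log2 −0.51, SE 0.15) and the corepressor Rcor2 (log2 −1.02, SE 0.31). Gap43 stood at 642 to 1049 CPM at 1% and 520.4 to 993 CPM at 100%. With the GC and length correction 3 of the 25 were lower and none was higher, and the values of Gng8, Stmn3, Marcksl1 and Lhx2 moved to −0.29, −0.28, −0.20 and −0.27. Without the 100% library of litter 4, 11 were lower. Of 16 tubulin genes, 3 were lower, Tubb3, Tubb5 (log2 −0.48, SE 0.12) and Tubg1 (log2 −0.44, SE 0.20). The median of the 16, −0.19, moved to 0.023 with the correction, beside 0.097 over all genes.

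Of the 23 tested genes of mature neurons, 2 were lower (Lhx2 and Emx2) and none was higher. The median log2 fold change was −0.0027, or 0.096 with the correction, beside 0.0057 and 0.097 over all genes. Lhx2 stands in the lists of both stages, and the difference between the lists was not tested. Omp, the olfactory marker protein, stood at 327, 381, 475 and 375.5 CPM at 1% and at 355, 323, 396 and 388 CPM at 100%, higher in 2 litters and lower in 2 (log2 −0.08, 95% interval −0.45 to 0.30). The sign of the Omp value changed after the GC and length correction (log2 0.13, beside a median of 0.097 over all genes). Among 18 genes of basal cells and progenitors, 3 were lower and none was higher: Krt14, a basal keratin (log2 −1.13, SE 0.45), Hes6, a progenitor factor (log2 −0.50, SE 0.16, and −0.19 with the correction), and Lamb3, a laminin chain (log2 −1.71, SE 0.41). Among 28 cell division genes, Ccnb2, Mcm3 and Ube2c were lower (log2 −0.47, −0.61 and −0.55) and none was higher. With the correction 1 gene of the basal and progenitor list was lower and 1 was higher. In the cell division list 1 was then lower and none was higher.

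In a pull-down from whole tissue, fewer cells of a type, less RNA per cell and less pS6 in these cells cannot be told apart. The defining markers fixed for each cell type were therefore summed, and none of the markers was at 0 in all libraries of the doses. The summed level of the 6 markers of immature neurons was 1589 to 2220.2 CPM at 1% and 1197 to 1995 CPM at 100%, lower in 4 of 4 litters. For the 7 markers of mature neurons the ranges were 2591 to 3344.5 and 2581 to 3682 CPM, higher in 3 of 4 litters. The 8 nasal and lateral gland markers ran from 37234 to 54354 CPM at 1% and from 71159 to 79295 CPM at 100%, and the 6 markers of Bowman's gland from 24771 to 56696 and from 38971 to 77010 CPM. Both gland sums were higher in 4 of 4 litters. Lcn3, Obp2b and Dmbt1 are among the nasal and lateral gland markers, so that sum is not separate from their values above. Of its other members Lcn4 was higher before adjustment, Bpifb3, Bpifb4 and Scgb1c1 were lower, and Lcn11 was neither. The sums follow their most abundant members: of the 8 nasal and lateral gland markers 4 were higher and 3 lower before adjustment. Of the 6 of Bowman's gland 2 were higher, Obp2a and the uncertain Bpifb9a. Obp2a makes up most of the Bowman's gland sum, so that sum is not separate from its values above either. The other members, Aqp5, Sox9, Muc5b and Obp1a, were neither, with log2 fold changes by DESeq2 of 0.19, −0.21, −0.12 and −0.48. Also higher at 100% in 4 of 4 litters were the sums for endothelium (4.596 to 9.26 against 10.1 to 18.4 CPM) and microvillar cells (138 to 185 against 159 to 262 CPM). Of the 3 endothelial markers only 1, Pecam1, had enough counts to be tested, and this sum is low at both doses. Sustentacular cells (2470.3 to 5299 against 3945 to 4848 CPM) were higher in 3 of 4 litters, while respiratory ciliated cells (275 to 504 against 295 to 422 CPM) and vomeronasal neurons (145 to 255 against 175 to 197 CPM) were higher in 2 and lower in 2. Summed markers of other cells were lower at 100% in 4 of 4 litters: basal cells and progenitors (78.0 to 106 CPM against 50.3 to 91.2 CPM), ensheathing glia (879 to 1177 CPM against 711 to 771 CPM), immune cells (219 to 361 against 109 to 231 CPM), red cells (1939 to 13643 against 1223 to 3618 CPM), skeletal muscle (11.3 to 47.5 against 6.06 to 23.4 CPM) and fibroblasts and bone (6728 to 9838 against 5564 to 7155 CPM). The part of tissue make-up in the results above was not tested.

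Among single genes of these cells, Apoe, a lipid carrier abundant in ensheathing glia, stood at 944, 764, 1015 and 940.4 CPM at 1% and at 625, 634, 648 and 500.2 CPM at 100%, without overlap (log2 −0.60, SE 0.13, edgeR adjusted p = 0.408, and −0.31 with the GC and length correction). In the glia and endothelium list 2 of 13 genes were lower (Apoe and Npy) and 1 higher (Pecam1, an endothelial adhesion protein, log2 1.66, SE 0.58). Of 17 immune genes, 4 were lower and none was higher: Cd74, H2-Eb1, C1qb and C1qc (log2 −0.75, −0.83, −0.75 and −0.66). This number was 1 with the correction, which moved C1qc to −0.37, 2 without litter 4 or its 1% library and 7 without litter 2. Of 6 red cell genes, 5 were lower, among them Alas2, the first enzyme of haem synthesis (log2 −1.42, SE 0.41), Hbb-bs (log2 −1.33, SE 0.35) and Hba-a1 (log2 −1.67, SE 0.36). The 1% library of litter 2 was the richest in red cell RNA: Hbb-bs reached 12890 CPM against 1772 to 5789 CPM in the other 1% libraries. Hba-a1 has the same counts as Hba-a2 and only 0.375% of its estimated counts are unique, so both are 1 uncertain measurement. With genes that share counts taken as 1, 2 red cell genes were lower. That fit keeps only 1 symbol of each such set, so members of the list can drop out of it. In the list of collagens and matrix 4 of 24 genes were lower (Col16a1, Col1a1, Col5a1 and Sparc) and 1 higher (Dcn). The 4 became 2 with the correction, whose value for Col1a1 was −0.15 in place of −0.44, and 2 without litter 3, either of its dose libraries or the 100% library of litter 1. Col16a1 (chr4:130047840-130099283) stood at 89.2, 81.7, 74.9 and 110.9 CPM at 1% and at 45.9, 43.3, 33.5 and 37.7 CPM at 100%, with no overlap (log2 −1.15, SE 0.21, edgeR adjusted p = 0.308). Of 13 skeletal muscle genes, none was higher or lower before adjustment.

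Of 1122 odorant receptor genes in the files, 135 had enough counts to be tested. At 100%, 13 of these were higher and 3 were lower than at 1% before adjustment. In 4 of 4 litters 18 were higher and 7 lower. Over all genes tested the shares were 4.28% and 3.79% before adjustment, and 9.02% and 7.94% in 4 of 4 litters. The median log2 fold change of the receptors was 0.25, or 0.12 with the GC and length correction, beside 0.0057 and 0.097 over all genes. Without 1 litter at a time, in fits of 103 to 208 receptors, it was 0.26, 0.91, 0.73 and 0.12 for litters 1 to 4. Without the 100% library of litter 4 its sign changed, to −0.16. The number higher was 7 without litter 1, 22 without its 100% library, 8 without the 100% library of litter 2, 4 without that of litter 4 and 3 without the block, and it was 22 by DESeq2. A receptor could enter the test through the libraries in which it is high, so these counts describe the tested receptors alone. Receptors together took 0.270%, 0.0423%, 0.0460% and 0.0716% of the counts in the 1% libraries of litters 1 to 4, and 0.193%, 0.0481%, 0.0499% and 0.173% in the 100% libraries. The 95% Wilson intervals, for counting error alone since PCR copies were not marked, were 0.264% to 0.276% for the 1% library of litter 1 and 0.188% to 0.199% for its 100% library. The means were 0.116% ± 0.0778 (SD, n = 4) at 100% and 0.107% ± 0.109 (SD, n = 4) at 1%, a ratio of 1.08 (2-sided exact permutation p = 0.857, where the smallest possible p is 0.0286). The share was higher at 100% in litters 2 to 4 and lower in litter 1. The ratio was 1.69 without litter 1 and 0.813 without litter 4, so its direction rests on litter 4.

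Olfr96 (chr17:37220146-37226673) had the smallest p of the receptors, with 27, 5, 5 and 1 counts in the 1% libraries of litters 1 to 4 and 113, 78, 34 and 164 counts in the 100% libraries. In CPM these were 8.92, 0.663, 0.561 and 0.101 against 42.1, 11.7, 11.98 and 20.3, with no overlap, and 0.151 to 0.844 CPM in the controls. The log2 fold change was 3.93 (SE 0.85, 95% interval 2.06 to 5.80, edgeR adjusted p = 0.408). Olfr31 (chr14:14322828-14331791) stood at 20.2, 0.663, 0.112 and 2.42 CPM at 1% and at 32.4, 8.40, 7.04 and 22.0 CPM at 100%, higher in each litter (log2 3.29, SE 0.95, and 1.65 without the block). Olfr491 had 32, 2, 0 and 1 counts at 1% and 49, 11, 3 and 233 counts at 100% (log2 3.91, SE 1.28, 2.20 without litter 4 and 2.301 without the block). DESeq2 called Olfr96, Olfr31 and Olfr491 higher with the litter block, and edgeR called none of the 3. Olfr350 (log2 3.26, SE 1.04) and Olfr131 (log2 2.24, SE 0.73) were also higher in 4 of 4 litters. Olfr381 had 1 count in all at 1%, and 5, 0, 13 and 32 counts at 100%, too few at 1% for a fold. In each of Olfr96, Olfr31, Olfr350, Olfr491 and Olfr131 the 1% library of litter 1 was the highest of the 1% libraries.

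Other receptors were already above their controls at 1%. Olfr1395 (chr11:49142274-49150453), the receptor called at 1% against the controls, stood at 7.20, 5.14, 2.20 and 2.87 CPM in the controls, at 67.1, 30.8, 31.3 and 25.9 CPM at 1% and at 37.7, 27.4, 17.96 and 19.7 CPM at 100%. In each litter the 100% library lay below the 1% library and above the control. Between the doses the log2 fold change was −0.56 (95% interval −1.17 to 0.06, edgeR adjusted p = 0.641), and against the controls it was 3.19 at 1% (adjusted p = 0.00524) and 2.63 at 100% (adjusted p = 0.00603). Olfr376, on the same chromosome, stood at 0 to 1.35 CPM in the controls, at 19.2, 15.65, 11.995 and 24.1 CPM at 1% and at 22.0, 13.0, 3.87 and 15.8 CPM at 100% (log2 −0.57, 95% interval −1.83 to 0.70, and −0.29 without litter 3). Unique counts were 31.2% of its estimated counts, so near copies may hold part of its reads. Olfr30 (chr11:58454105-58462270) stood at 3.62 to 12.3 CPM in the controls, at 14.5, 13.8, 15.7 and 25.2 CPM at 1% and at 45.9, 23.4, 24.7 and 61.0 CPM at 100%, in that order within each litter (log2 1.05 between the doses, SE 0.31). Olfr222 went the other way, with 31.3 to 57.4 CPM in the controls, 20.8, 17.4, 44.6 and 24.8 CPM at 1% and 10.8, 5.85, 8.10 and 19.54 CPM at 100% (log2 −1.26, SE 0.36). The difference in dose pattern between these receptors was not tested.

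**Figure D5:**
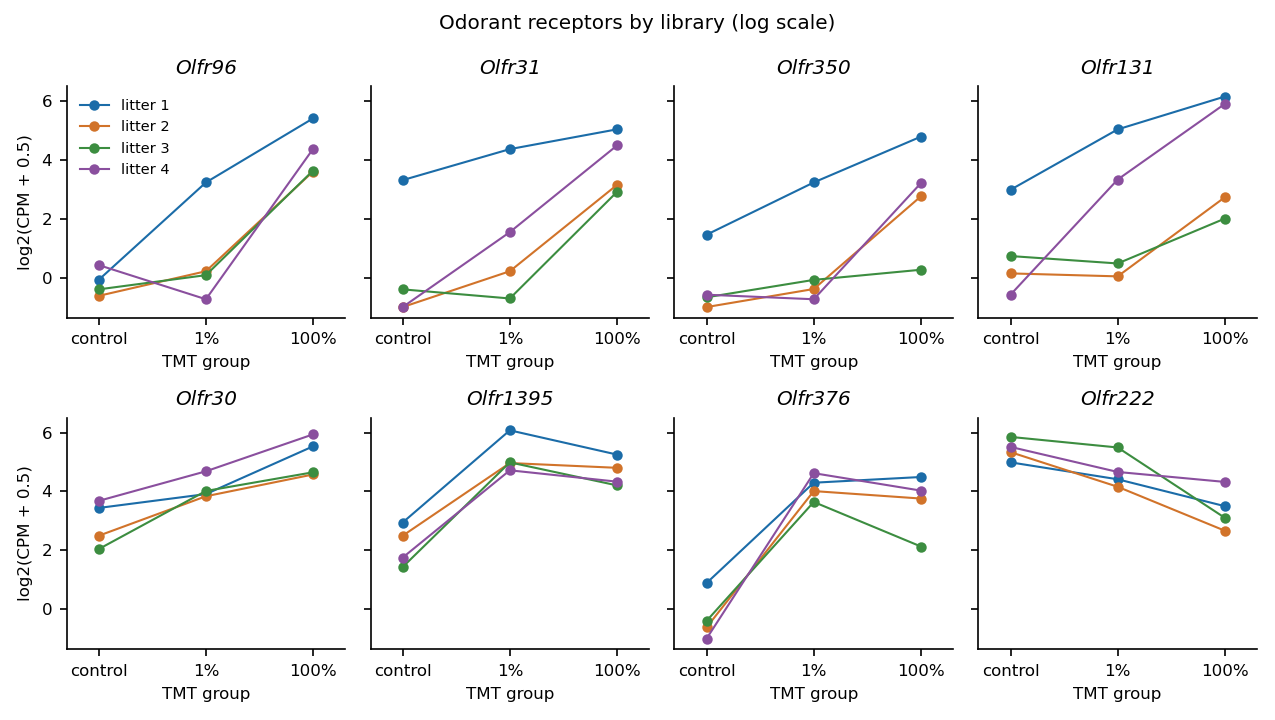
The plots of receptors by library show log2(CPM + 0.5) on a log scale (y axis) of 8 odorant receptors in the control, 1% and 100% libraries (x axis), with a line for each of the 4 litters. Olfr96, Olfr31, Olfr350, Olfr131 and Olfr30 are higher at 100% than at 1% in every litter, Olfr222 is lower in every litter, and Olfr1395 is at its highest at 1%.

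Apart from Meis2, a member of the vomeronasal list, the remaining genes of smallest p belong to none of these groups. Pim3 (chr15:88862186-88865726), a serine/threonine kinase that promotes survival, stood at 125, 269.9, 213 and 164 CPM at 1% and at 243.5, 565, 305 and 468 CPM at 100%, higher in each litter (log2 1.01, SE 0.17, edgeR adjusted p = 0.230). BC048546, which had no match in the annotation used, stood at 1350.1 to 2349 CPM at 1% and 3691 to 6212 CPM at 100%, with no overlap (log2 1.36, SE 0.24). The homeodomain factor Meis2 stood at 15.02 to 32.8 CPM at 1% and at 51.8 to 64.8 CPM at 100%, again with no overlap, while its controls ran from 26.0 to 52.2 CPM (log2 1.34, SE 0.25). Lower genes were Zbtb25, a zinc-finger factor (47.1 to 80.3 CPM at 1% and 20.4 to 36.2 CPM at 100%, log2 −1.26, SE 0.24), and Slc27a3, a fatty acid transport family protein. Slc27a3 had 28, 128, 184 and 387 counts at 1% and 15, 5, 1 and 24 counts at 100% (log2 −3.53, SE 0.69). Mdk, the growth factor midkine, stood at 84.0 to 150.2 CPM at 1% and 43.2 to 91.4 CPM at 100% (log2 −1.004, SE 0.21).

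The counts of the remaining lists are to be read beside 4.28% higher and 3.79% lower over all genes. The proteasome list had 3 of 37 higher (Psma1, Psma2 and Psme4) and none lower, with a median log2 fold change of 0.0031. Of 42 respiratory chain genes 1 was higher and 2 were lower, and of 66 ribosomal protein genes 1 was higher (Rpl4) and 1 lower (Rps15). The ribosomal median of −0.12 changed sign, to 0.062, with the GC and length correction, beside 0.097 over all genes. The value of Rps15 was −0.56, or −0.07 with the correction and −0.29 without litter 4. Of 18 genes of respiratory ciliated cells none was higher or lower. In the interferon list 1 of 20 genes was lower (Isg15, log2 −1.30, SE 0.53, and −0.85 without litter 3), and in the list of microvillar cells and ionocytes 2 of 10 were higher, Ascl3 (log2 0.58, SE 0.18, and 0.92 with the correction) and Coch (log2 0.87, SE 0.27). Of the 6 vomeronasal genes, Meis2 alone was higher.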

How the data were processed

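RNA of a pS6 pull-down was sequenced in 12 libraries of the TMT experiment, whose groups and litters come from the labels. Bowtie, bedtools and mm10 are named, without their roles, per the submitters' processing notes. Their versions were not given in the sources used here. A file holds 20 values for each of 23481 gene symbols, without a header line. The deposited raw counts of the first value column, whole numbers read from the values as uniquely aligned reads, were used throughout. The deposited last column, with fractional values, was taken for estimated counts in which a read with several alignments is divided among them. It was rounded and used as an alternative only. The 18 value columns between them were not used, nor were the 11 libraries of the acetophenone experiment. Genes with near-identical copies are therefore underread.

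The dose contrast was fitted with edgeR 4.0.16 (R 4.3.3) after TMM normalization and a filter by filterByExpr (minimum count 10). The 2-sided quasi-likelihood test of glmQLFit had group and litter (4 levels) as terms and Benjamini-Hochberg adjustment over all genes, at a threshold of 0.05. SE is the log2 fold change divided by the square root of F, and 95% intervals use the fit's degrees of freedom. CPM are counts scaled to TMM library sizes. Alternatives were DESeq2 1.42.0, its size factors in edgeR, no block, the libraries of the doses alone, no count filter, the estimated counts, a GC and length correction, and leaving out litters or libraries.

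Each library is labelled with its litter, which pairs the doses. In deviations from the group means, same-litter libraries of the doses correlated across genes at 0.374, 0.172, 0.134 and −0.0375 for litters 1 to 4, and libraries of different litters at −0.307 to 0.286. Title codes of the libraries differ between litter 1 and the later litters, and whether this marks a batch is not given in the sources used here. No 2 libraries of a group agreed within sampling noise.

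The genes and lists were chosen with earlier results of these data known. Named genes are Nfil3, Lcn3, Obp2b and Dmbt1, the 8 of smallest p in each direction, the 2 of smallest p in each list, 8 receptors of smallest p with 4 more, and marker genes. Other list members named here were chosen after their values were seen. Some list members are not reported here. Gene positions are GENCODE M21 on GRCm38, with 23112 symbols matched. Start sites are RefSeq's on GRCm38.p6. Depth and the spread between libraries limit the precision.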

Additional observations from a re-analysis of the deposited data

Results flagged for a closer look

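The share of counts on odorant receptors was 0.270% in the 1% TMT library of litter 1, against 0.0423% to 0.0716% in the 1% libraries of the other litters. The gap to the nearest of them was 0.871 of the range of the group, above Dixon's critical value for 4 samples at the 95% level. It was 1 of 34 groups checked, which were the receptor share and the 16 leading genes at both doses, so 1 such value can be due to chance alone. Without litter 1 in both groups the ratio of the mean shares of the doses was 1.69 in place of 1.08.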

How the results depend on the processing

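The number of genes called at an adjusted p under 0.05, 0 higher and 0 lower in the edgeR fit with litter as a replicate block, differed between settings. With the replicate block it was 49 higher and 44 lower by DESeq2, 5 and 0 with the 8 libraries of the doses, 5 and 1 with no count filter, and 4 and 0 with the GC and length correction. DESeq2 with no replicate block, added after seeing the data, gave 8 and 10. With no replicate block edgeR called 0 and 0, as it did with DESeq2's size factors, with the estimated counts and with genes that share counts taken as 1. When litters or single libraries were left out in turn, the counts ran from 0 to 0 higher and from 0 to 1 lower, the 1 being BC048679 without the 100% library of litter 4. The causes were not tested. Of the 76 named genes, 74 kept their direction under all alternatives that gave a value. Many of them were chosen by a small p in this contrast, and the alternatives refit the same libraries. Their kept direction is therefore no separate support. Gnai2 reversed to a log2 fold change of 0.0165 with the GC and length correction, and without 1 litter ran from −0.375 to 0.00915. Omp reversed to 0.133 with the correction, and without 1 litter or library ran from −0.226 to 0.0248. The ratio of the receptor shares, 1.08, ran from 0.813 to 1.69 without 1 litter, and its exact sign-flip p within litters (the replicate block) was 0.625, where the smallest possible is 0.125. Counts of under 3 at 1% limit the receptor folds.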

Other observations

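The tooth enamel genes Odam, Amelx and Ambn were looked at after their values were seen, and none passed in the edgeR fit of the 12 libraries. Odam, which encodes a protein of the enamel-forming cells and of the gum's attachment to the tooth, stood at 222, 265, 149.5 and 421 CPM in the 1% libraries of litters 1 to 4 and at 518, 1082, 461 and 1720.2 CPM in the 100% libraries, with 22.7 to 644 CPM in the controls. It was higher at 100% in 4 of 4 litters, with no overlap (log2 1.74, SE 0.51, edgeR adjusted p = 0.518), and passed in the fit of the 8 libraries. Amelx, the gene of amelogenin, had 0, 72, 0 and 4 counts at 1% and 0, 1289, 6 and 196 counts at 100%, and 8273 counts in the control of litter 2. Ambn, which encodes ameloblastin, had a log2 fold change of −0.15 (SE 2.14).

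BC048679 had 3937 counts in the 1% library of litter 2 and at most 37 counts in any other library of the experiment.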
